A study of Mus musculus with 12 samples.

Results

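The comparison was between mouse embryonic fibroblasts (MEFs) homozygous for a histidine codon 61 of Nras (61H/H) and MEFs homozygous for a proline codon 61 (61P/P), with 3 libraries each, which made 6 of the 12 libraries of the series. All MEFs were C57BL/6 cultures from TN embryos, which carry the Tyr::CreER-T2 transgene and LSL-Nras alleles silenced by a loxP-flanked stop cassette. By the account of the study, replicate MEF lines were derived from different embryos. Adenoviral Cre with eGFP was given to passage 3 cultures to excise the cassette from both alleles, and RNA was taken 6 days later. The other 6 libraries came from 61R/R and 61Q/Q MEFs handled in the same way and entered the filter on low counts, the scaling and the estimate of variance. The Tyr promoter is active in melanocytes, so in these fibroblasts the Cre came from the virus. The deposited values were counts per gene and do not show which codon 61 allele a read came from, and no uninfected culture was among the samples.

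RAS proteins switch on when they bind GTP and off when they hydrolyze it, and glutamine 61 takes part in that hydrolysis. GTP-bound NRAS activates the RAF, MEK and ERK kinases, and ERK in turn induces its own inhibitors, among them dual-specificity phosphatases and Sprouty proteins. In fibroblasts, ERK signaling also bears on matrix proteases, adhesion receptors and the collagen-rich matrix that these cells secrete.

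Total counts were 81602506, 84255080 and 92179519 in 61H/H libraries and 78586677, 73222911 and 85874117 in 61P/P libraries, and the ribosomal RNA precursor Rn45s accounted for 9.83% to 13.2% of them. The 3 cultures of each genotype included 1 with high Xist and without Y-linked transcripts, 61H/H replicate 2 and 61P/P replicate 1, and 2 with Y-linked transcripts. 61P/P replicate 1 stood apart from the other 5 libraries. On the first principal component (46.0% of variance), the 61H/H libraries lay between 19.8 and 28.4, against −61.9 for 61P/P replicate 1 and −10.8 and −1.5 for the other 61P/P libraries. Within genotypes, the chi-square per gene was 89.4 and 141 for pairs that held this library and 19.1 to 40.6 for the other 4 pairs. In CPM (counts scaled to a common library size), the sum of 10 macrophage markers was 118 to 178 CPM in 61H/H libraries, against 306 CPM in 61P/P replicate 1 and 119 and 193 CPM in the other 61P/P libraries, and 0 of 19 genes of a longer macrophage list passed the test by edgeR, DESeq2 or limma-voom, with 0 at an unadjusted p below 0.05 by edgeR. Defining markers of endothelium, epithelium, skeletal muscle, glia and melanocytes were nearly absent, as Epcam, Cdh1, Myod1, Sox10, Dct and Tyr were under 1 CPM in each of the 6 libraries.

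**Figure D1:**
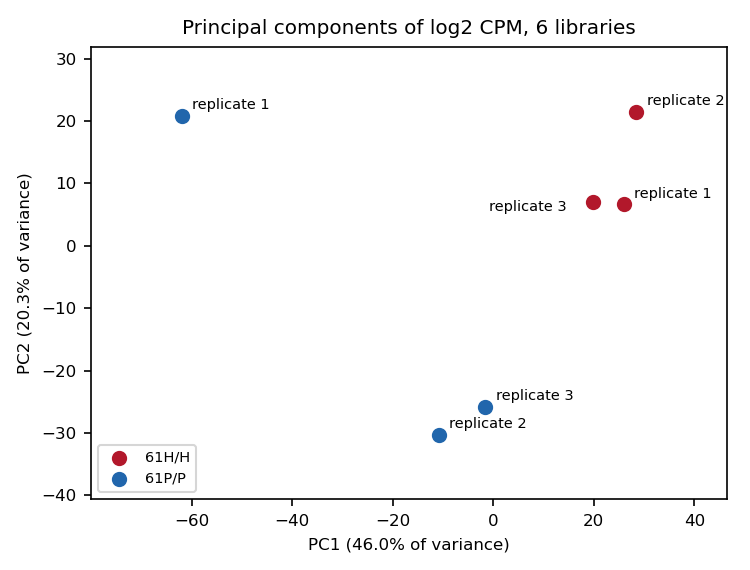
First 2 principal components of log2 CPM for the 6 libraries. Points are libraries, red for 61H/H and blue for 61P/P. The 61H/H libraries sit together at the right, and 61P/P replicate 1 sits at −61.9 on the first component, away from the other 61P/P libraries.

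Of 15759 genes tested with edgeR's quasi-likelihood test, 238 (1.51%) changed, meaning an adjusted p (Benjamini-Hochberg) below 0.05 and a difference of at least 1.5-fold. Of these, 137 (0.869%) were higher and 101 (0.641%) lower in 61H/H than in 61P/P MEFs. At the adjusted p alone, 392 genes (2.49%) passed, of which 231 (1.47%) were higher and 161 (1.02%) lower, 24.6% of all tested genes had an unadjusted p below 0.05, and these shares are the background for the gene lists. For single genes and lists, passed, called, rose and fell refer to this test at the adjusted p unless another tool or fit is named. The median log2 fold change was −0.01 over all tested genes. At least 2-fold differences were found for 76 of the higher and 47 of the lower genes, and at least 4-fold differences for 19 and 9. In each of the 238 genes the 61H/H libraries did not overlap with the 61P/P libraries, which was true of 33.2% of all tested genes. 61P/P replicate 1 was the 61P/P library farthest from 61H/H in 102 of the 137 higher genes and in 77 of the 101 lower genes.

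The number of changed genes depended on single libraries, although the direction did not. Without 61P/P replicate 1, the fit across genotypes called 21 genes and a fit of the remaining 5 libraries of the pair alone called 487, against 382 with all 6 libraries of the pair. All 238 genes kept their direction in both fits without this library, and 17 of them remained changed in the first and 188 in the second. The fit across genotypes called 45 genes without 61H/H replicate 1, 14 without 61H/H replicate 3 and 524 without 61P/P replicate 3. It called 0 genes without 61H/H replicate 2 and 0 without 61P/P replicate 2 by edgeR, with 2720 and 3461 genes at an unadjusted p below 0.05, where DESeq2 and limma-voom on all 12 libraries called 869 and 250. Libraries outside the pair mattered too, with 113, 390 and 83 genes without 61Q/Q replicates 1, 2 and 3 and with 611 and 84 without 61R/R replicates 1 and 3. Of 107 genes that met the naming rule and passed the test, most of which are named below, none passed it in all 12 of these fits, Mmp13 passed it in 10, and all 107 kept their direction in every alternative run. Without 61P/P replicate 1, 5 of the 107 passed in the fit across genotypes (Nes, Dusp5, Pak6, Rasgrp1 and Mmp13), the adjusted p of all 107 lay between 0.0222 and 0.149, and 102 passed in the fit of the 5 libraries of the pair.

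**Figure D2:**
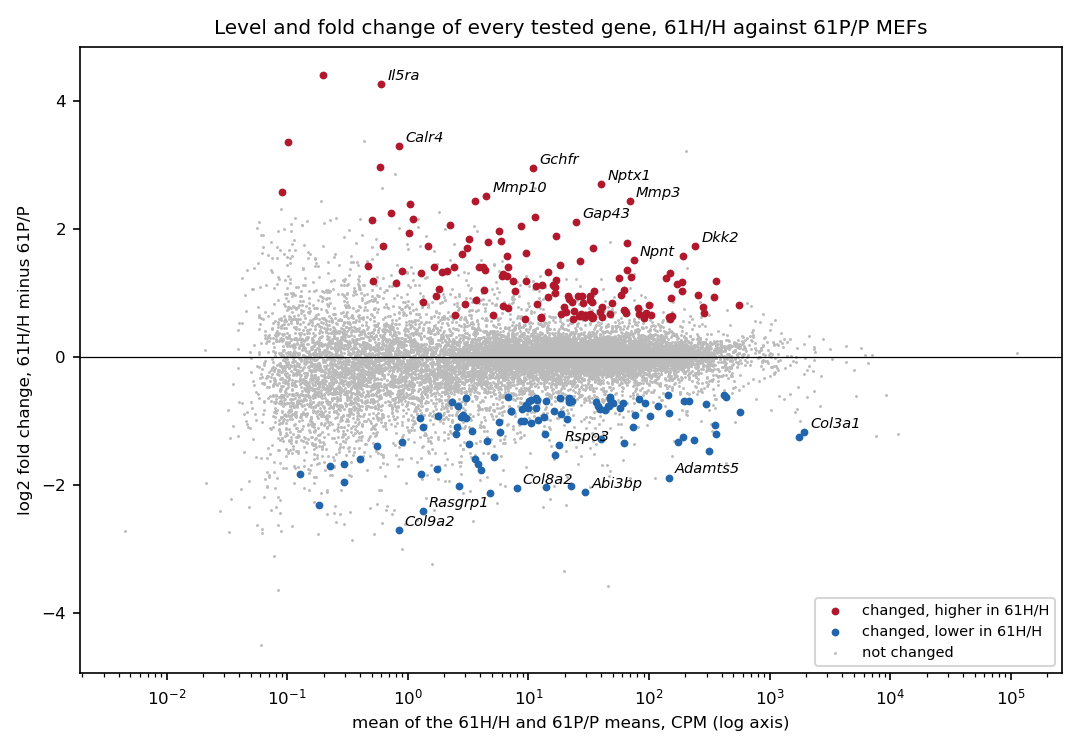
Mean level of each tested gene (CPM, log axis) against its log2 fold change, 61H/H minus 61P/P, with changed genes in red (higher in 61H/H) and blue (lower). Among changed genes above 10 CPM, Gchfr, Nptx1 and Mmp3 stand highest, and Abi3bp and Adamts5 are among the lowest.

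Nras itself was measured first. It lies at chr3:103058285-103067914 (mm10) and had 126, 118 and 117 CPM in 61H/H MEFs, against 88.1, 100.4 and 108 CPM in 61P/P MEFs. The libraries of the genotypes did not overlap, but the log2 difference of 0.29 ± 0.081 (SE) missed the threshold by edgeR on all 12 libraries (adjusted p = 0.0701). DESeq2 called Nras higher (adjusted p = 0.0235), and edgeR on the 6 libraries of the pair alone did not (adjusted p = 0.0937). Hras had 49.6, 56.4 and 55.7 CPM in 61H/H and 56.2, 56.0 and 55.2 CPM in 61P/P MEFs and overlapped between genotypes (adjusted p = 0.633). The kinases Braf (log2 difference −0.36) and Araf (0.01) did not pass the test either, with adjusted p of 0.063 and 0.934. Braf passed by DESeq2 (adjusted p = 0.0139) and by edgeR on the 6 libraries of the pair alone (0.0255), and Araf by neither. Among 11 RAS and RAF genes, only Rras2, which encodes the RAS relative TC21, passed by edgeR on all 12 libraries, where DESeq2 called 2 higher and 3 lower. Rras2 had 106, 104 and 108 CPM in 61H/H and 70.0, 69.3 and 81.3 CPM in 61P/P MEFs, a log2 fold change of 0.52 ± 0.075 (adjusted p = 0.0196). None of 15 genes of the MEK, ERK and RSK list passed the test by edgeR, DESeq2 or limma-voom, and 4 had an unadjusted p below 0.05 by edgeR.

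Regulators of the RAS nucleotide cycle moved in both directions. Rasgrp1, which encodes a RAS guanine nucleotide exchange factor, was at 0.352, 0.487 and 0.420 CPM in 61H/H MEFs, against 2.56, 2.05 and 2.09 CPM in 61P/P MEFs. Every 61H/H library was thus under 0.5 CPM and every 61P/P library over 2 CPM, and the log2 fold change was −2.41 ± 0.34 (adjusted p = 0.0196). Rasa2, a GTPase activator that turns RAS off, and Rapgef2, an exchange factor for RAP1, rose by log2 fold changes of 0.31 ± 0.072 and 0.32 ± 0.061 (adjusted p = 0.0494 and 0.0358). The other 24 of 27 genes of this list did not pass by edgeR, among them the exchange factor Sos1 (−0.07, adjusted p = 0.471), and DESeq2 called 6 of the 27 higher and 2 lower.

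The lists of dual-specificity (DUSP) phosphatases, not all of which act mainly on ERK, and of Sprouty, Spred and related inhibitors held 6 genes called higher in 61H/H MEFs by edgeR. These were 3 of 13 DUSP genes and 3 of 12 of the Sprouty and Spred list, and 0 were called lower, where DESeq2 called 1 lower and the fit of the pair alone 1. Dusp6, at chr10:99263231-99267489, encodes a cytoplasmic phosphatase for ERK. It had 98.5, 102 and 99.6 CPM in 61H/H MEFs, against 31.7, 47.4 and 47.0 CPM in 61P/P MEFs. The 61H/H libraries lay within a few CPM of each other and at more than 2 times the level of any 61P/P library, with a log2 fold change of 1.25 ± 0.19 (adjusted p = 0.0222). Dusp5, a nuclear phosphatase for ERK, had 24.0, 25 and 21.3 CPM in 61H/H and 7.24, 10.2 and 13.1 CPM in 61P/P MEFs, a log2 fold change of 1.20 ± 0.19 (adjusted p = 0.0227). Dusp10, which acts mainly on p38 and JNK, had 28.7, 34.4 and 32.1 CPM in 61H/H and 17.4, 21.2 and 22.9 CPM in 61P/P MEFs, a log2 fold change of 0.63 ± 0.14 (adjusted p = 0.0494). These 3 were the members called among 13 tested DUSP genes, which had a median log2 difference of 0.15. Dusp4, another nuclear ERK phosphatase, overlapped between genotypes, with 21.8, 26.1 and 27.2 CPM in 61H/H and 20.5, 15.9 and 26.3 CPM in 61P/P MEFs (adjusted p = 0.35). Dusp1 (−0.14), Dusp2 (−0.41), Dusp3 (0.15), Dusp7 (0.04), Dusp8 (−0.58), Dusp9 (0.34), Dusp14 (0.12), Dusp16 (0.18) and Dusp22 (−0.20) had adjusted p of 0.122 to 0.766 on these log2 differences. Dusp5 alone was called without 61P/P replicate 1 in the fit across genotypes, and in the fit of the pair alone the same 3 genes rose and Dusp8 fell (−0.56, adjusted p = 0.0099). With all 6 libraries of the pair fitted alone, Dusp8 fell as well (−0.58, adjusted p = 0.0132).

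Sprouty proteins and ERRFI1 act further up, at receptors and RAS. Spry4 had 78.2, 84.5 and 76.0 CPM in 61H/H MEFs, against 28.8, 34.7 and 37.7 CPM in 61P/P MEFs, a log2 fold change of 1.24 ± 0.19 (adjusted p = 0.022). Spry2 had 109, 95.4 and 103 CPM in 61H/H and 56.2, 59.4 and 65.6 CPM in 61P/P MEFs, a log2 fold change of 0.76 ± 0.16 (adjusted p = 0.0394). Both genes were higher in each 61H/H library than in any 61P/P library. Spry1 was not called and leaned the other way, with 15.2, 17.5 and 23.9 CPM in 61H/H and 39.5, 25.9 and 21.0 CPM in 61P/P MEFs (log2 difference −0.61 ± 0.27, adjusted p = 0.192). Errfi1, which encodes an inhibitor of the EGF receptor (MIG6), showed the largest difference of the list. It had 328, 294 and 244 CPM in 61H/H and 92.1, 96.7 and 101 CPM in 61P/P MEFs, so the lowest 61H/H library was at more than 2 times the highest 61P/P library, with a log2 fold change of 1.58 ± 0.33 (adjusted p = 0.0399). Thus 3 of 12 tested members of the Sprouty, Spred and related list rose and 0 fell by edgeR, where DESeq2 called 5 higher and 1, Lrig3, lower (adjusted p = 0.0265), with a median log2 difference of 0.24. Of these, 0 were called without 61P/P replicate 1 in the fit across genotypes by edgeR, with 6 at an unadjusted p below 0.05 (adjusted p = 0.0704, 0.118 and 0.116 for Spry4, Spry2 and Errfi1, with log2 differences of 1.14, 0.71 and 1.55), and 4 were called in the fit of the pair alone. Spred1 (0.16), Spred2 (0.25), Spred3 (0.54), Lrig1 (0.63), Lrig3 (−0.35), Sh2b3 (0.23), Il17rd (−0.20) and Cbl (0.02) did not pass (adjusted p from 0.058 to 0.925).

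**Figure D3:**
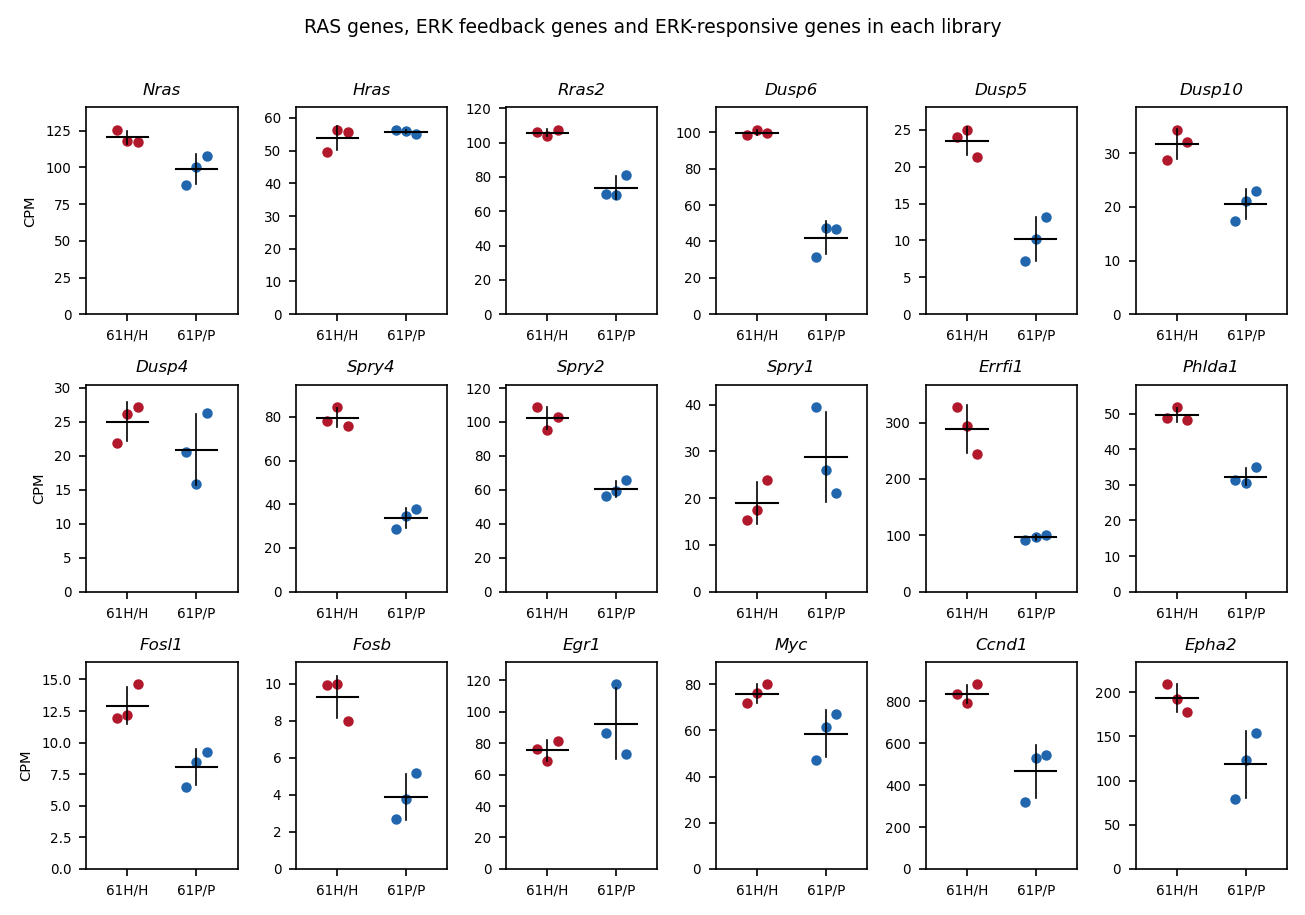
CPM of RAS genes, ERK feedback genes and ERK-responsive genes in each library, red for 61H/H and blue for 61P/P, with replicates 1 to 3 from left to right in each group. Lines mark the mean and bars the SD of 3 libraries. Dusp6, Dusp5, Spry4 and Errfi1 do not overlap between genotypes, while Hras, Dusp4 and Egr1 do.

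The 10-gene list of transcripts used as a readout of MAPK activity overlaps with the lists above. Of these, 4 were called higher (Dusp6, Spry4, Spry2 and Phlda1), 0 lower, and the median log2 difference was 0.73, against −0.01 over all genes. Phlda1, an ERK-induced pleckstrin-homology protein, had 48.8, 51.9 and 48.2 CPM in 61H/H MEFs, against 31.4, 30.5 and 35.1 CPM in 61P/P MEFs (log2 fold change 0.62 ± 0.092, adjusted p = 0.0218). Etv4 (0.87), Epha2 (0.70), Ccnd1 (0.85) and Etv5 (0.25) also had no overlap between genotypes but missed the threshold, with adjusted p of 0.073, 0.065, 0.0517 and 0.254, and Epha4 had a log2 difference of −0.56 (adjusted p = 0.28). DESeq2 called Etv4, Epha2 and Ccnd1 higher (adjusted p = 0.0097, 0.00781 and 0.00191) but neither Etv5 nor Epha4 (0.241 and 0.206). The median was 0.62 without 61P/P replicate 1, with 0 members called in the fit across genotypes by edgeR (8 at an unadjusted p below 0.05, and adjusted p of 0.0553, 0.0704, 0.118 and 0.0653 for Dusp6, Spry4, Spry2 and Phlda1) and 8 called higher and 1 lower in the fit of the pair alone.

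Among transcription factors downstream of ERK, few genes were called. Fosb, an AP-1 subunit, had 9.91, 9.98 and 7.99 CPM in 61H/H and 2.69, 3.76 and 5.18 CPM in 61P/P MEFs, a log2 fold change of 1.26 ± 0.28 (adjusted p = 0.0463), and was the member called among 13 AP-1 genes, where DESeq2 called 3 higher and 1 lower. Fosl1 (FRA1) had 12, 12.2 and 14.6 CPM in 61H/H and 6.5, 8.48 and 9.22 CPM in 61P/P MEFs, without overlap but with an adjusted p of 0.102. Egr1 overlapped, with 76.4, 68.5 and 81.7 CPM in 61H/H and 86.5, 117 and 73.2 CPM in 61P/P MEFs (adjusted p = 0.279). Ier3, an immediate early gene, rose by 0.77 ± 0.17 on the log2 scale (adjusted p = 0.0437), the member called among 20 immediate early genes. None of 17 ETS factors and none of 14 EGF family genes passed the test by edgeR, where 5 and 4 had an unadjusted p below 0.05, and DESeq2 called 4 and 2 of them and limma-voom 1 and 0. Myc had 71.8, 75.9 and 79.9 CPM in 61H/H and 47.3, 61.4 and 67.0 CPM in 61P/P MEFs (adjusted p = 0.099), Mycn a log2 difference of 0.27 (adjusted p = 0.686), and none of 12 genes of the MYC network was called by edgeR or limma-voom and 1 by DESeq2, with 4 at an unadjusted p below 0.05 by edgeR.

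No S-phase or mitosis gene passed the test by edgeR. Mki67, a proliferation marker, had 332, 301 and 312 CPM in 61H/H and 363, 322 and 339 CPM in 61P/P MEFs (log2 difference −0.12 ± 0.20, adjusted p = 0.758). Of 58 S-phase and E2F target genes and 45 genes of mitosis and the spindle, 0 were called by edgeR or limma-voom in either direction and 1 and 0 by DESeq2, 1 and 0 had an unadjusted p below 0.05 by edgeR, and the median log2 differences were 0.01 and 0.003. Ccnd1, which encodes cyclin D1, had 833, 794 and 881 CPM in 61H/H and 320.3, 531 and 544 CPM in 61P/P MEFs, with a log2 difference of 0.85 ± 0.20 that just missed the threshold (adjusted p = 0.0517). Cdkn2a, the locus of p16 and p19ARF, had 63.0, 68.7 and 61.1 CPM in 61H/H and 26.6, 47.7 and 44.3 CPM in 61P/P MEFs (adjusted p = 0.128), and Cdkn1a (p21) had 418, 416 and 466 CPM in 61H/H and 371, 404 and 390.4 CPM in 61P/P MEFs (adjusted p = 0.314). Among 28 CDK inhibitors and p53 targets, 3 rose and 0 fell by edgeR, with 10 at an unadjusted p below 0.05 and 6 higher and 1 lower by DESeq2. Mdm2, the ubiquitin ligase of p53, had 323, 351 and 379 CPM in 61H/H and 194, 235 and 229.5 CPM in 61P/P MEFs, a log2 fold change of 0.68 ± 0.11 (adjusted p = 0.0222). Ccng1 and Btg1 rose by 0.31 ± 0.067 and 0.32 ± 0.074 (adjusted p = 0.0429 and 0.0495), below the 1.5-fold limit.

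Large rises among genes of matrix turnover came from a cluster of metalloproteinase genes on chromosome 9. Mmp3 (stromelysin 1, which degrades proteoglycans and activates other proteases) had 114, 139 and 97.5 CPM in 61H/H MEFs, against 25.6, 20.8 and 18.6 CPM in 61P/P MEFs. Every 61H/H library was at more than 3 times any 61P/P library, and the log2 fold change was 2.43 ± 0.45 (adjusted p = 0.0329). Mmp10 (stromelysin 2) had 4.77, 10.8 and 7.07 CPM in 61H/H and 0.465, 1.72 and 1.79 CPM in 61P/P MEFs, a log2 fold change of 2.51 ± 0.52 (adjusted p = 0.0381). Mmp13, the main interstitial collagenase of rodents, had 9.76, 10.5 and 9.24 CPM in 61H/H and 3.28, 4.33 and 3.55 CPM in 61P/P MEFs, a log2 fold change of 1.40 ± 0.19 (adjusted p = 0.0155). Mmp1b, a collagenase, had 0.623, 1.11 and 0.713 CPM in 61H/H and 0.0979, 0.217 and 0.236 CPM in 61P/P MEFs, a log2 fold change of 2.14 ± 0.47 (adjusted p = 0.0442). Its close paralog Mmp1a had 0.0705, 1.25 and 1.04 CPM in 61H/H and 0, 0.0814 and 0.142 CPM in 61P/P MEFs, overlapped between genotypes (adjusted p = 0.119), and reads of the 2 genes may not have been told apart. These 4 called genes lay within chr9:7272514-7510242 (mm10), where 6 genes were tested. Outside this cluster, Mmp2 (−0.54, adjusted p = 0.134), Mmp14 (−0.21, 0.236), Timp1 (0.09, 0.785) and Timp3 (−1.02, 0.0998) were not called, and the list of 35 tested proteases and inhibitors had a median log2 difference of −0.31. Of the 35, 4 rose and 1 fell by edgeR, where DESeq2 called 4 higher and 7 lower. Without 61P/P replicate 1, Mmp13 alone was called in the fit across genotypes by edgeR, with 12 at an unadjusted p below 0.05. In that fit Mmp3, Mmp10 and Mmp1b had adjusted p of 0.0826, 0.0883 and 0.126. The fit of the pair alone without this library called 4 higher and 8 lower.

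The promoters of these 4 genes are shown because the genes moved together and share a short motif. The printed stretch is the 150 bases just before the start of each gene, 5′ to 3′ on the strand of the gene, from RefSeq (GRCm38.p6, the assembly of mm10), at chr9:7445672-7445821 (+) for Mmp3, chr9:7502192-7502341 (+) for Mmp10, chr9:7272364-7272513 (+) for Mmp13, chr9:7388027-7388176 (−) for Mmp1b and chr10:76726045-76726194 (−) for Col6a1, a collagen gene lower in 61H/H. Capitals mark matches to TGANTCA, the consensus bound by AP-1.
Mmp3: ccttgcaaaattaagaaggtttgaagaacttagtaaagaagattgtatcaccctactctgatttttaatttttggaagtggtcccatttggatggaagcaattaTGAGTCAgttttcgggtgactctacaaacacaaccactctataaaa
Mmp10: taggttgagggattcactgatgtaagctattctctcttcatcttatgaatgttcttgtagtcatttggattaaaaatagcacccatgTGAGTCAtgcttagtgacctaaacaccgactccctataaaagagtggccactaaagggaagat
Mmp13: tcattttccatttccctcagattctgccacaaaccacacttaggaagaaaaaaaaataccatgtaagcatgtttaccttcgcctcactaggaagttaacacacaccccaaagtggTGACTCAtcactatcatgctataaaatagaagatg
Mmp1b: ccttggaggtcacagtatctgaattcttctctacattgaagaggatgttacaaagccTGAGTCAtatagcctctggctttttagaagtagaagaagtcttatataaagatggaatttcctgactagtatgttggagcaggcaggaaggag
Col6a1: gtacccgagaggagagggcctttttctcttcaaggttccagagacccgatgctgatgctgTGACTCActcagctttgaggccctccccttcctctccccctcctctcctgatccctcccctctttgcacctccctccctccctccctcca
The match began 46 bases before the start of Mmp3, 63 bases before Mmp10, 35 before Mmp13, 93 before Mmp1b and 90 before Col6a1. On either strand of a window from 250 bases before to 50 after the start, TGANTCA was found in all 4 called proteases with a window and in 1 of 18 uncalled members of the list, which was Mmp1a. All 5 list members with a match lie on chromosome 9. Since the 4 called genes were shown for that shared motif, the split is not a test of it. Over the comparison TGANTCA was found in 16 of 109 changed genes that were higher (14.7%), in 7 of 71 that were lower (9.86%) and in 649 of 11667 tested genes with a window (5.56%). The 16 include the 4 protease genes shown above, which were picked with their shared motif known. CCGGAAG, a core bound by ETS factors, was found in 13 of the 109 (11.9%), 4 of the 71 (5.63%) and 1886 of the 11667 (16.2%), and no match of one motif overlapped a match of the other. A match is a string of letters and was not tested for binding.

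In the opposite direction, Adamts5, an aggrecanase that cleaves cartilage proteoglycan, had 58.8, 53.6 and 74.2 CPM in 61H/H MEFs, against 351, 184 and 155 CPM in 61P/P MEFs. Its log2 fold change was −1.88 ± 0.33 (adjusted p = 0.0312), and −1.44 without 61P/P replicate 1, the highest 61P/P library. Plau, the urokinase plasminogen activator, had 180.4, 272 and 254 CPM in 61H/H and 88.0, 112 and 122 CPM in 61P/P MEFs, a log2 fold change of 1.13 ± 0.20 (adjusted p = 0.0312), and was the member called among 13 plasminogen activators and serpins.

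Some receptors for matrix proteins rose as well. Itga2, the α2 chain of a collagen receptor, had 19.4, 12.2 and 10.4 CPM in 61H/H and 2.35, 3.53 and 4.34 CPM in 61P/P MEFs, a log2 fold change of 2.04 ± 0.41 (adjusted p = 0.0373). Itga6, the α6 chain of laminin receptors, had 243, 183 and 151 CPM in 61H/H and 62.4, 79.2 and 104 CPM in 61P/P MEFs, a log2 fold change of 1.23 ± 0.24 (adjusted p = 0.0358). Both were highest in 61H/H replicate 1 and lowest in 61P/P replicate 1, with no overlap. Itgb7 rose by 1.30 ± 0.27 on the log2 scale (adjusted p = 0.0384), and the remaining 18 of 21 integrin genes were not called, among them Itgb1 (−0.05) and Itga5 (−0.30) with adjusted p of 0.868 and 0.459. The 3 called were 14.3% of the list, where 2.49% of all tested genes passed. DESeq2 called 4 integrins higher and 2 lower, and limma-voom 1 and 0. Without 61P/P replicate 1, 0 were called in the fit across genotypes by edgeR, with 9 at an unadjusted p below 0.05. The fit of the pair alone without this library called 5 higher and 4 lower. Npnt (nephronectin, a matrix ligand of integrins) had 136, 108 and 85.8 CPM in 61H/H MEFs, against 35.2, 38.2 and 42.0 CPM in 61P/P MEFs, a log2 fold change of 1.52 ± 0.21 (adjusted p = 0.0196). The adhesion molecule Alcam rose by 0.47 ± 0.09 (adjusted p = 0.0357), 1 of 34 cadherins and adhesion genes.

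Some genes of the structural matrix were lower in 61H/H MEFs. Of 39 tested collagen genes, 6 fell and 0 rose, 20 had every 61H/H library below every 61P/P library, where 16.2% of all tested genes did, and the median log2 difference was −0.62. Col3a1, the chain of type III collagen, had 1196, 1055 and 1314 CPM in 61H/H MEFs, against 3844, 2425 and 1784 CPM in 61P/P MEFs (log2 fold change −1.18 ± 0.27, adjusted p = 0.0495). The 61H/H libraries stood close together, while the 61P/P libraries spread over a 2-fold range with replicate 1 on top. Col6a1 had 418, 345 and 439 CPM in 61H/H and 943, 657 and 584 CPM in 61P/P MEFs, and its neighbor Col6a2 had 235, 179.8 and 242 CPM in 61H/H and 692, 440.3 and 379.8 CPM in 61P/P MEFs. These chains of type VI collagen fell by log2 fold changes of −0.86 ± 0.20 and −1.20 ± 0.26 (adjusted p = 0.0488 and 0.0439). Col11a1 (−1.07 ± 0.23), Col8a2 (−2.05 ± 0.45) and Col9a2 (−2.70 ± 0.55) also fell (adjusted p = 0.0414, 0.0445 and 0.0375). Col1a1 and Col1a2, the chains of type I collagen, missed the threshold by edgeR on all 12 libraries. Both passed by edgeR on the 6 libraries of the pair alone (adjusted p = 0.0106 for Col1a1 and 0.0278 for Col1a2) and by DESeq2 (0.0152 and 0.0237). Col1a1 had 4119, 4360.4 and 5078 CPM in 61H/H and 12671, 10144 and 9036 CPM in 61P/P MEFs (log2 difference −1.23 ± 0.31, adjusted p = 0.0568), and Col1a2 had 3683, 4064 and 4449.8 CPM in 61H/H and 5612, 6987 and 6131 CPM in 61P/P MEFs (log2 difference −0.62 ± 0.20, adjusted p = 0.0922). The chains of basement membrane collagen overlapped, with Col4a1 at −0.13 (adjusted p = 0.758).

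Without 61P/P replicate 1, the median of the collagens was −0.53, 0 were called in the fit across genotypes by edgeR (17 had an unadjusted p below 0.05, and Col9a2 had the lowest adjusted p of the 6, 0.0917), and 16 fell and 0 rose in the fit of the pair alone. With all 6 libraries of the pair fitted alone, 13 fell. Summed cartilage markers (Sox9, Col2a1, Acan and Matn1) were at 71.9, 58.9 and 70.9 CPM in 61H/H MEFs, against 240, 115 and 104 CPM in 61P/P MEFs. Without Col2a1, the main chain of cartilage collagen, the sums were 34.2, 37.5 and 41.6 CPM in 61H/H and 34.3, 51.4 and 43.5 CPM in 61P/P MEFs, and Matn1 was under 1 CPM in each library. The summed level of 11 fibroblast markers was 15129 to 16848 CPM in 61H/H MEFs, against 22610 to 27563 CPM in 61P/P MEFs. Without Col1a1, Col1a2 and Col3a1, the other 8 summed to 5649 to 6257 CPM in 61H/H and 5436 to 5658 CPM in 61P/P MEFs. Among them, Pdgfra, a receptor that marks fibroblasts, had 189, 179 and 238 CPM in 61H/H and 129, 102 and 102 CPM in 61P/P MEFs (adjusted p = 0.0806), and Prrx1, a mesenchymal transcription factor, had 688, 610.3 and 659 CPM in 61H/H and 661, 638 and 656 CPM in 61P/P MEFs (adjusted p = 0.996). In these bulk libraries, fewer cells of a type and less RNA per cell cannot be told apart, and the part of cell composition in these differences was not tested.

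Among genes of collagen processing, 4 of 31 fell. Lox, lysyl oxidase, had 998, 967 and 1162 CPM in 61H/H and 2849, 2348 and 2246 CPM in 61P/P MEFs, a log2 fold change of −1.25 ± 0.27 (adjusted p = 0.0438). Its relative Loxl1 had 351, 333 and 340.4 CPM in 61H/H and 559, 502 and 526 CPM in 61P/P MEFs, a log2 fold change of −0.63 ± 0.13 (adjusted p = 0.0413). Neither gene overlapped between genotypes. Plod1, a lysyl hydroxylase, and Ppib, a prolyl isomerase, fell by smaller amounts (−0.41 ± 0.093 and −0.21 ± 0.049, adjusted p = 0.0476 and 0.0494). Of the 31, 0 rose and 23 had no overlap with every 61H/H library lower, and the median log2 difference was −0.37. The median was −0.34 without 61P/P replicate 1, with 0 called in the fit across genotypes by edgeR (24 at an unadjusted p below 0.05, and an adjusted p of 0.121 for Lox) and 19 lower in the fit of the pair alone.

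Of the non-collagenous matrix genes, 6 were called lower and 1, Npnt, higher. Abi3bp, a matrix protein that binds collagen, had 15.7, 7.96 and 9.74 CPM in 61H/H and 73.3, 40.3 and 30.8 CPM in 61P/P MEFs, a log2 fold change of −2.11 ± 0.39 (adjusted p = 0.0329). Aspn (asporin, a small leucine-rich proteoglycan) had 105, 71.0 and 124 CPM in 61H/H and 339.7, 228 and 184 CPM in 61P/P MEFs, a log2 fold change of −1.32 ± 0.30 (adjusted p = 0.0488). In both, 61P/P replicate 1 was the highest library and no libraries overlapped. Svep1 (−1.24 ± 0.26), Nell2 (−0.96 ± 0.21), Nid2 (−0.80 ± 0.14) and the elastic-fiber protein Emilin1 (−0.69 ± 0.14) fell as well (adjusted p = 0.0381, 0.0443, 0.0312 and 0.0399). By list, 1 of 17 leucine-rich proteoglycans, 1 of 21 elastic-fiber genes, 3 of 42 matricellular and adhesive glycoproteins and 1 of 16 laminins and nidogens fell, with medians of −0.72, −0.54, −0.59 and −0.11, and 1 glycoprotein, Npnt, rose. Log2 differences above 0 were found in 3, 3, 9 and 5 members of these lists, and DESeq2 called 7, 9, 13 and 4 lower and 0, 0, 2 and 1 higher. The medians were −0.44, −0.36, −0.42 and −0.04 without 61P/P replicate 1. Of 30 genes of proteoglycans and hyaluronan and of 29 contractile genes, 0 were called by edgeR, with 15 and 9 at an unadjusted p below 0.05, where DESeq2 called 9 and 4 and limma-voom 1 and 0. Without 61P/P replicate 1, 0 genes of these lists were called in the fit across genotypes by edgeR, while 4 leucine-rich proteoglycans, 9 elastic-fiber genes and 13 glycoproteins were lower and 2 glycoproteins higher in the fit of the pair alone, with 7, 11 and 17 at an unadjusted p below 0.05 in the first fit. Acta2, smooth muscle actin, had 1408, 1559.6 and 1868 CPM in 61H/H and 2456, 2449 and 2565 CPM in 61P/P MEFs, a log2 difference of −0.63 ± 0.25 without overlap but with an adjusted p of 0.148. Acta2 passed by edgeR on the 6 libraries of the pair alone (adjusted p = 0.0249) but not by DESeq2 (0.0678).

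**Figure D4:**
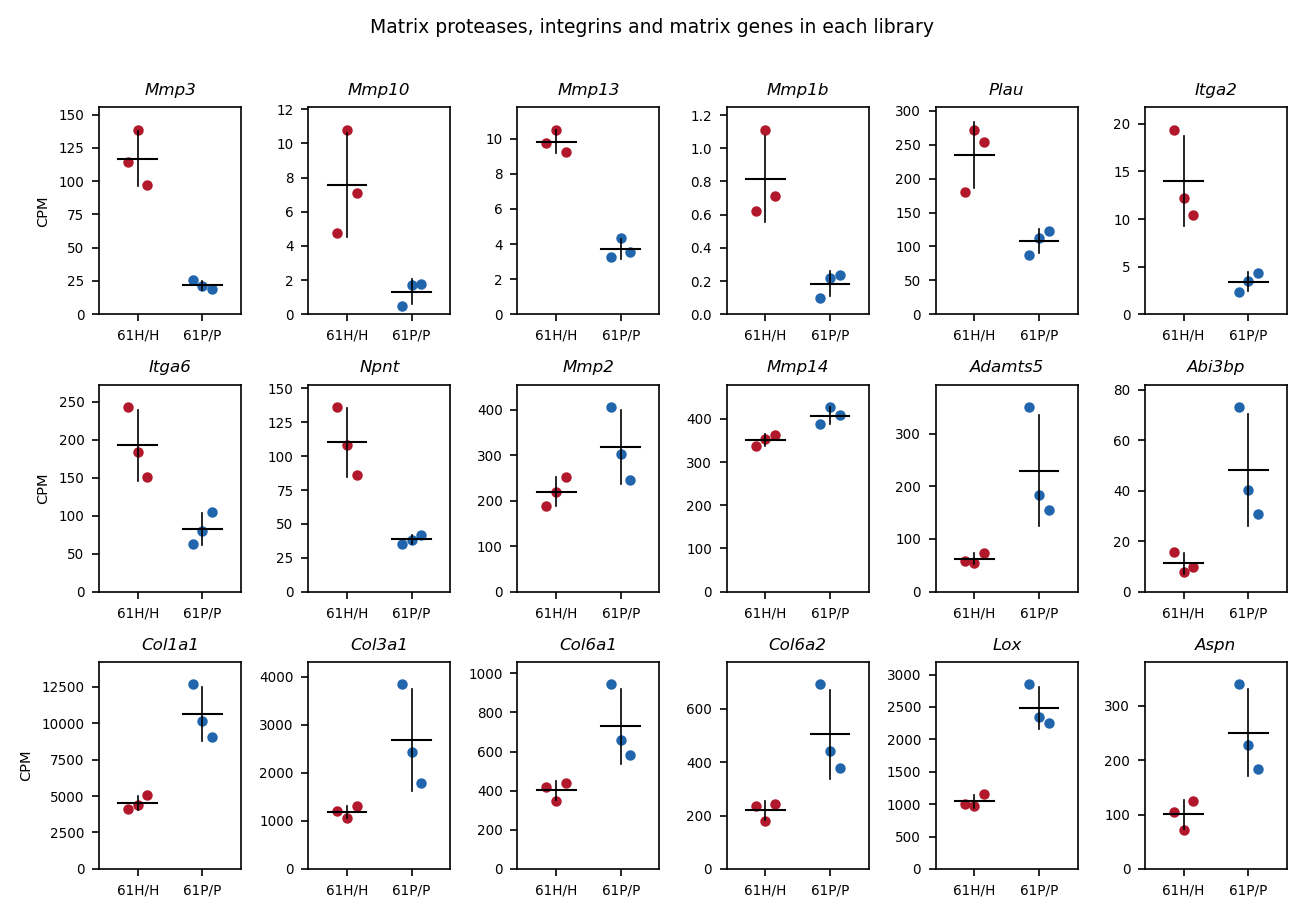
CPM of matrix proteases, integrins and matrix genes in each library, red for 61H/H and blue for 61P/P, with replicates 1 to 3 from left to right in each group. Lines mark the mean and bars the SD of 3 libraries. Mmp3, Mmp13, Plau and Npnt are higher in every 61H/H library, and Adamts5, Col3a1, Lox and Aspn are lower, with 61P/P replicate 1 highest for Adamts5, Col3a1, Lox and Aspn.

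Secreted signals and their regulators changed in both directions. Dkk2, a Wnt antagonist, had 381, 360.5 and 363 CPM in 61H/H MEFs, against 79.6, 118 and 136 CPM in 61P/P MEFs, a log2 fold change of 1.73 ± 0.34 (adjusted p = 0.0369). Apcdd1, a membrane inhibitor of Wnt, rose by 0.95 ± 0.17 (adjusted p = 0.0312). The Wnt agonists Rspo3 and Rspo2 fell, at 11.8, 8.41 and 9.56 CPM in 61H/H and 29.8, 26.2 and 21.1 CPM in 61P/P MEFs for Rspo3 and 47.4, 24.5 and 33.7 CPM in 61H/H and 116, 85.4 and 66.8 CPM in 61P/P MEFs for Rspo2. None of these genes overlapped between genotypes, and the falls were −1.37 ± 0.21 and −1.35 ± 0.30 (adjusted p = 0.0222 and 0.0446). With the receptor Fzd2 (−0.38, adjusted p = 0.0495), 3 of 47 Wnt genes fell and 2 rose, with a median of −0.37. In Notch signaling, the DNA-binding factor Rbpj rose (0.94 ± 0.19, adjusted p = 0.0377) and the coactivator Maml2 (−0.82 ± 0.17) and the receptor Notch2 (−0.25 ± 0.059) fell (adjusted p = 0.038 and 0.0494), 3 of 19 genes. Gdf10, a TGF-β family ligand, fell by −1.56 ± 0.30 (adjusted p = 0.0357), Dhh (desert hedgehog) rose by 1.83 ± 0.38 (adjusted p = 0.0381), and Angpt1, the ligand of TIE2, fell by −0.94 ± 0.19 (adjusted p = 0.0369). The cytokine receptor chains Il6st (gp130) and Osmr fell by −0.59 ± 0.12 and −0.51 ± 0.11 (adjusted p = 0.0369 and 0.0459). No gene of 28 in BMP signaling, 16 in the IGF axis and 29 in PDGF, FGF, HGF and VEGF signaling was called by edgeR, with 10, 3 and 15 at an unadjusted p below 0.05, where DESeq2 called 5, 0 and 9 and limma-voom 1, 0 and 0. Without 61P/P replicate 1, 0 Wnt genes were called in the fit across genotypes by edgeR, with 18 at an unadjusted p below 0.05, and 4 rose and 9 fell in the fit of the pair alone.

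Rgs16 and Rgs12, GTPase activators for heterotrimeric G proteins, rose by 1.04 ± 0.22 and 0.36 ± 0.082 (adjusted p = 0.0414 and 0.0494). They were 2 of 17 RGS genes (11.8%, against 2.49% of all tested genes). In this list 10 genes had a log2 difference below 0, and the median was −0.23. Tbc1d2, an activator for RAB GTPases, rose by 0.85 ± 0.15 (adjusted p = 0.0316). It was 1 of 34 RAB and TBC1D genes (2.94%), near the share of all tested genes. DESeq2 called 2 higher and 2 lower in each list. Without 61P/P replicate 1, 0 genes of these lists were called in the fit across genotypes by edgeR, with 6 and 5 at an unadjusted p below 0.05.

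Most of the 15 largest rises among genes of at least 1 CPM lay outside these groups. Il5ra, the α chain of the interleukin-5 receptor, at chr6:106710379-106749037, had 2.11, 0.672 and 0.661 CPM in 61H/H MEFs (180, 58 and 63 counts), against 0.0489, 0.0543 and 0.0709 CPM in 61P/P MEFs (4, 4 and 6 counts). The difference was carried by low counts, and its log2 fold change was 4.26 ± 0.75 (adjusted p = 0.0312). Gchfr, the feedback regulator of GTP cyclohydrolase 1, had 23.2, 17.9 and 17.2 CPM in 61H/H and 1.55, 2.81 and 3.20 CPM in 61P/P MEFs, a log2 fold change of 2.94 ± 0.48 (adjusted p = 0.0249). Nptx1, neuronal pentraxin 1, had 60.6, 80.9 and 67.2 CPM in 61H/H and 7.68, 11.9 and 12.5 CPM in 61P/P MEFs, a log2 fold change of 2.70 ± 0.51 (adjusted p = 0.034). In these genes the lowest 61H/H library was several-fold above the highest 61P/P library. Gchfr and Pak6 lie in a stretch of chromosome 2 where 6 of 35 tested genes changed. Gap43, a growth-cone protein, had 39.9, 41.6 and 38.6 CPM in 61H/H and 5.71, 11.3 and 10.9 CPM in 61P/P MEFs, a log2 fold change of 2.11 ± 0.42 (adjusted p = 0.0373), and Igsf11, an adhesion molecule of the immunoglobulin family, had 27.2, 15.5 and 13.0 CPM in 61H/H and 3.21, 3.64 and 5.44 CPM in 61P/P MEFs, a log2 fold change of 2.18 ± 0.40 (adjusted p = 0.0316). Ptpn22, a tyrosine phosphatase best known from lymphocytes, had 9.30, 4.35 and 4.50 CPM in 61H/H and 1.33, 0.964 and 1.05 CPM in 61P/P MEFs (log2 fold change 2.43 ± 0.56, adjusted p = 0.0494). Ptpn22 lies on chromosome 3, as Nras does. The calreticulin relative Calr4 (3.29 ± 0.58), the butyrophilin Btn1a1 (2.97 ± 0.59), the actin-binding protein Xirp2 (2.38 ± 0.41), the tight-junction protein Cldn4 (2.24 ± 0.45), the p21-activated kinase Pak6 (2.15 ± 0.34) and the cannabinoid receptor Cnr1 (2.06 ± 0.48) completed the 15 largest rises, at means of 1.05 to 3.63 CPM in 61H/H and 0.132 to 0.869 CPM in 61P/P MEFs (adjusted p from 0.0222 to 0.0495). The summed level of 5 mesothelial markers was 26.3, 24.0 and 12.5 CPM in 61H/H MEFs, against 3.12, 5.54 and 6.88 CPM in 61P/P MEFs, and most of it was Msln (mesothelin), with 25.1, 22.9 and 10.6 CPM in 61H/H and 0.465, 3.96 and 5.01 CPM in 61P/P MEFs (adjusted p = 0.0703). Without Msln the sums were 1.17, 1.14 and 1.96 CPM in 61H/H and 2.66, 1.57 and 1.87 CPM in 61P/P MEFs, Upk1b had 0.282, 0.579 and 1.03 CPM in 61H/H and 1.35, 0.950 and 1.30 CPM in 61P/P MEFs, and Upk3b, Lrrn4 and Wt1 were under 1 CPM in each library. Of a longer list of 13 mesothelial genes, 7 had a log2 difference above 0 and 6 below, and 1, Krt18, was called. Krt18 and Aldh1a2, which mesothelium also expresses, rose by 1.41 ± 0.28 and 1.40 ± 0.31 (adjusted p = 0.0358 and 0.0464), and the part of such cells in the rises of these genes and of Cldn4 was not tested.

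Among the largest falls, Slc5a7, the high-affinity choline transporter, had 10.7, 7.36 and 9.06 CPM in 61H/H MEFs, against 50.1, 35.0 and 24.1 CPM in 61P/P MEFs, a log2 fold change of −2.01 ± 0.36 (adjusted p = 0.0312). Lrrc4c, a netrin-G ligand, had 2.10, 1.27 and 1.97 CPM in 61H/H and 8.43, 7.62 and 7.40 CPM in 61P/P MEFs, a log2 fold change of −2.13 ± 0.43 (adjusted p = 0.037), and its 61P/P libraries lay close to each other. Pth1r, the receptor of parathyroid hormone, had 1.9, 1.30 and 2.25 CPM in 61H/H and 8.24, 4.67 and 4.41 CPM in 61P/P MEFs (log2 fold change −1.67 ± 0.35, adjusted p = 0.0399). Zcchc5, a retrotransposon-derived gene on the X chromosome, was highest in 61P/P replicate 1, with 6.61, 3.68 and 6.11 CPM in 61H/H and 42.5, 15.1 and 9.62 CPM in 61P/P MEFs and a log2 fold change of −2.03 with that library and −1.18 without it (adjusted p = 0.0495 with it and 0.122 without it). The amine oxidase Aoc3 (−1.59 ± 0.32), the fast skeletal myosin Myh2 (−2.02 ± 0.47), the apolipoprotein Apol6 (−1.75 ± 0.37), Nckap5 (−1.83 ± 0.36) and Lrrc75b (−1.76 ± 0.33) also fell, to means of 0.558 to 1.83 CPM in 61H/H MEFs, against 1.99 to 6.22 CPM in 61P/P MEFs (adjusted p from 0.0329 to 0.0494). Together with Col9a2, Col8a2, Rasgrp1, Abi3bp, Adamts5 and Gdf10 above, these were the 15 largest falls.

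Channels and transporters leaned lower, with 5 of 49 tested genes fallen and 1 risen and a median of −0.26. Ano1, a calcium-activated chloride channel, had 96.0, 98.1 and 88.5 CPM in 61H/H and 20.3, 44.3 and 45.8 CPM in 61P/P MEFs, a log2 fold change of 1.36 ± 0.31 (adjusted p = 0.0494). The voltage-gated calcium channel subunits Cacna1h (−1.53 ± 0.35), Cacna1c (−0.72 ± 0.17) and Cacna2d1 (−0.53 ± 0.10) and the sodium-calcium exchanger Slc24a3 (−1.21 ± 0.26) fell with Slc5a7 (adjusted p = 0.0494, 0.0494, 0.0345 and 0.0414). The median was −0.07 without 61P/P replicate 1, with 0 called in the fit across genotypes by edgeR and 16 at an unadjusted p below 0.05, and 4 rose and 7 fell in the fit of the pair alone.

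**Figure D5:**
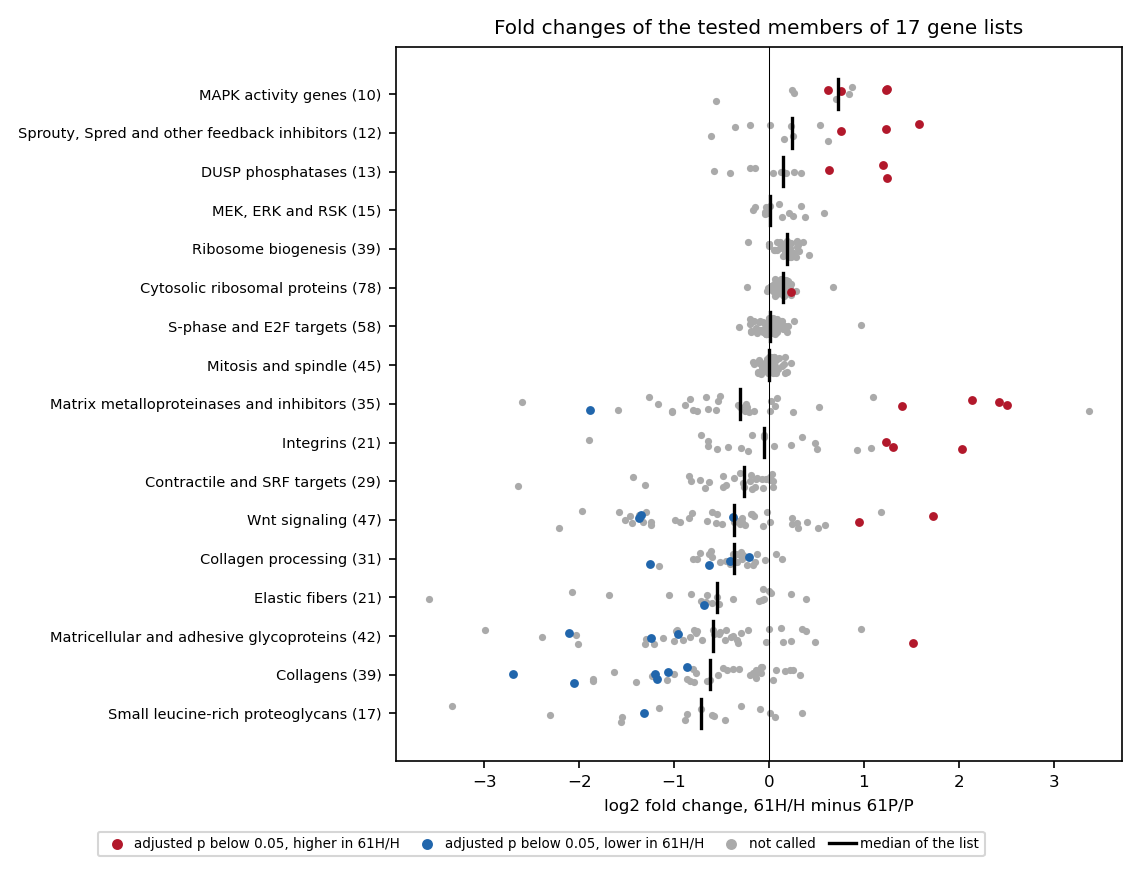
Log2 fold change, 61H/H minus 61P/P, of each tested member of 17 gene lists, with the number tested in brackets and some genes in more than 1 list. Colored points passed the test, red higher and blue lower in 61H/H, gray points did not, and black bars mark medians. The medians run from 0.73 for the MAPK activity genes to −0.72 for the small leucine-rich proteoglycans (0.62 and −0.44 without 61P/P replicate 1), and those of S-phase and mitosis genes lie near 0.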

How the data were processed

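RNA of 12 MEF cultures was sequenced after depletion of ribosomal RNA with a stranded total RNA kit. The authors deposited whole-number counts per gene. Their processing notes name STAR, the build mm10, Picard 2.17.11 and featureCounts. The strand setting of the counting is not given in the sources used here, so overlapping and antisense genes may share counts. A second deposited table of normalized counts was not used.

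In R 4.3.3 with edgeR 4.0.16, 15759 of 24419 genes passed filterByExpr by genotype. Libraries were scaled by TMM, and CPM values were computed on the scaled library sizes. All 12 libraries were fitted with a mean per genotype, since the genotypes then share 1 estimate of the variance (biological coefficient of variation 15.7%). 61H/H was compared with 61P/P by glmQLFTest, Benjamini-Hochberg adjustment covered the 15759 genes, and the SE is the log2 fold change divided by the square root of F. By the study's account, replicate MEF lines came from different embryos, so p-values measure the spread between such lines. Calling was tested on simulated data.

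Named genes were the 15 largest rises and falls among changed genes of at least 1 CPM in the higher genotype without overlap between libraries (predicted genes, pseudogenes, Xist, Tsix and Y-linked genes excluded), up to 8 called members of a list per direction, RAS, RAF and feedback genes whatever their values, and markers of other cell types. The comparison and the gene lists, written from general knowledge, were chosen with earlier results of these data known. Alternatives were RLE and upper quartile scaling, no filter, at least 1 CPM in all libraries, the 6 libraries of the pair alone, a replicate block, a term for embryo sex, DESeq2 1.42.0, limma-voom (limma 3.58.1), the adjusted p alone, a test against 1.5-fold, removal of Rn45s and Malat1, and leaving out each library. Leaving out libraries from the fit of the pair alone was added after the values were seen. A few genes and 1 list are not reported here. Promoter windows (250 bases before to 50 after the start) came from RefSeq for 11667 tested genes.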

Additional observations from a re-analysis of the deposited data

How the results depend on the processing

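The count of 238 changed genes (137 higher, 101 lower) depended on the fit and on single libraries. With the replicate block, 540 genes changed (252 higher, 288 lower), 235 of the 238 among them. Same-numbered libraries of 61H/H and 61P/P did not deviate together (correlations of −0.040, −0.041 and −0.031). The 61Q/Q and 61R/R libraries were not compared in this way, so whether the numbers pair cultures across genotypes was not tested. The 6 libraries of the pair alone gave 382 (172 higher, 210 lower). DESeq2 gave 869 (362 higher, 507 lower), 236 of the 238 among them. A term for embryo sex gave 149 (90 higher, 59 lower). The adjusted p alone gave 392 (231 higher, 161 lower). A test against a 1.5-fold threshold gave 0 (0 higher, 0 lower) by edgeR, with 704 at an unadjusted p below 0.05. Leaving out 1 of the 12 libraries gave 0 to 611 genes (0 to 256 higher, 0 to 355 lower), and the fit of the pair alone gave 177 (78 higher, 99 lower) without 61H/H replicate 1, 9 (5 and 4) without replicate 2 and 166 (71 and 95) without replicate 3, and 487 (215 and 272) without 61P/P replicate 1, 51 (19 and 32) without replicate 2 and 415 (180 and 235) without replicate 3. RLE, upper quartile scaling, no filter, at least 1 CPM in all libraries, limma-voom and removal of Rn45s and Malat1 gave 208 to 300. Those of the 238 genes that an alternative tested kept their direction in it (the test against a threshold gives no direction of its own). No named gene reversed a call. Of 107 called genes that met the naming rule, 89 were called in the fit of the pair alone and 107 by DESeq2. With 3 cultures per genotype and adjusted p no smaller than 0.0127, the calls were close to the threshold. The causes of these shifts were not tested.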

Other observations

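Genes of protein synthesis and metabolism differed by small amounts. Of 78 cytosolic ribosomal protein genes, every 61H/H library was above every 61P/P library in 59, where 17.0% of all tested genes showed this, but the median log2 difference was 0.15 and DESeq2 called 15 higher, the fit of the pair alone 4 and edgeR on all 12 libraries 1, Rps12 (0.23 ± 0.05, adjusted p = 0.0443 by edgeR, and its reads may be shared with near-identical copies elsewhere in the genome). Of 39 ribosome biogenesis genes, 22 had no overlap with every 61H/H library higher and the median was 0.19, and 0 were called by edgeR (16 at an unadjusted p below 0.05) and by limma-voom, with 4 higher and 1 lower by DESeq2. Without 61P/P replicate 1, the medians of these lists were 0.15 and 0.13, with 0 called by edgeR in the fit across genotypes and 26 and 8 at an unadjusted p below 0.05. Among 43 genes of the amino acid response driven by ATF4, 1 rose, 2 fell and 26 had every 61H/H library lower, where 16.2% of all tested genes did. The proline synthesis enzymes Pycr1 (−0.74 ± 0.16) and Aldh18a1 (−0.40 ± 0.091) fell, and Phgdh, the first enzyme of serine synthesis, rose (0.43 ± 0.094, adjusted p = 0.0445, 0.0475 and 0.0444).

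Genes of axon guidance were called in both directions. The semaphorins Sema6d (1.43 ± 0.26) and Sema5a (0.66 ± 0.15) rose and the receptors Ephb3 (−0.71 ± 0.15) and Nrp2 (−0.59 ± 0.14) fell, 4 of 57 tested or 7.02%, where 2.49% of all tested genes passed and DESeq2 called 5 higher and 9 lower (adjusted p = 0.0312, 0.0445, 0.041 and 0.0494). Among 74 limb and body patterning factors, Eya4 (−0.98 ± 0.15) and Msx1 (−0.85 ± 0.19) fell (adjusted p = 0.0222 and 0.0445), and of 25 anterior and trunk and 15 posterior Hox genes 0 were called by edgeR, DESeq2 or limma-voom, with 2 and 3 at an unadjusted p below 0.05 by edgeR. Nlrc5, a regulator of MHC class I genes, had 6.97, 9.86 and 10.7 CPM in 61H/H and 2.96, 2.12 and 2.81 CPM in 61P/P MEFs (log2 fold change 1.80 ± 0.27, adjusted p = 0.022), and was the member called among 18 genes of antigen presentation.

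Some changed genes were neighbors. With gene bodies no more than 500 kb apart, 46 of the 238 changed genes fell into 19 groups, of which 11 held only genes higher in 61H/H, 7 only genes lower and 1 both. How many of 238 tested genes picked regardless of position would form such groups was not computed. The count alone therefore does not show that changed genes cluster. At chr2:130707853-131030326, 4 of 4 tested genes were higher, among them Atrn. At chr2:118663577-120154575, 6 of 35 tested genes changed, 5 of them higher, among them Pak6 and Gchfr. At chr3:103859795-103966620, on the chromosome that carries Nras, 2 of 3 tested genes were higher, Ptpn22 and Rsbn1. Chromosome 2 held 22 of the 137 higher and 11 of the 101 lower genes, with 1229 genes tested. Atrn and these regions were chosen after their values were seen, overlapping genes may share reads, and no test of position was run. Counts do not show sequence, so whether the genotypes carry the same alleles in these regions was not tested.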
